A study of Mus musculus with 12 samples.

Results

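Neutrophils carry their antimicrobial proteins in granules that are filled in a fixed order as the cell matures, and the mRNAs of those proteins are used here to follow precursors and mature cells in bulk tissue. The set holds 10 genes, found by symbol and not by a cutoff on their values: Elane, Mpo, Camp, Ngp and Ltf as granule genes of precursors, and S100a8, S100a9, Mmp8, Lcn2 and Csf3r as genes of mature cells. All 10 had a row in both tissue tables, out of 23284 genes in each. The study measured poly(A) RNA in 12 libraries from mice that make neither apoE, a ligand for lipoprotein uptake, nor apoA-I, the structural protein of HDL. The groups were spleen from these mice (DKO), spleen from DKO mice that overexpress human apoA-I (DKO/hA-I), axillary lymph node from DKO mice and axillary lymph node from DKO/hA-I mice, with 3 libraries each. All mice were 30 weeks old and ate normal laboratory diet, and the lack of mouse apoE and apoA-I was common to all groups. No promoter for human apoA-I and no sex of the mice is given in the sources used here. Each library has an animal code of its own, so spleens and nodes were not paired.

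Neutrophils arise mainly in bone marrow. Promyelocytes fill azurophil granules with the serine protease neutrophil elastase (Elane) and with myeloperoxidase (Mpo), which makes hypochlorous acid. Myelocytes and metamyelocytes fill specific granules with cathelicidin (Camp), neutrophilic granule protein (Ngp) and the iron-binding protein lactoferrin (Ltf), and with the siderophore-binding protein lipocalin 2 (Lcn2). Later stages transcribe the collagenase Mmp8, the calcium-binding proteins S100a8 and S100a9, which form calprotectin, and Csf3r, the receptor for the growth factor G-CSF. The mouse spleen can host granulocyte formation and holds mature neutrophils in its red pulp, while a resting lymph node contains few. The division used here is one of stage and not of cell type, since Lcn2 and the S100 genes are already transcribed in precursors, and monocytes also transcribe Csf3r and the S100 genes.

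Transcription of these genes is known to depend on C/EBP factors and PU.1, so the regions before their starts were read for the letters that such factors favour. The promoter table from RefSeq, build GRCm38.p6, matched 10 of 10 genes. Within 250 bases before the start, on both strands, the C/EBP-type letters TTNNGNAA stood in 6 of 10 promoters and in 36.8% of 32851 promoters of the same length. The PU.1-type letters GAGGAA stood in 7 of 10 promoters and in 23.3% of the 32851. Camp had neither in this window. These counts use the RefSeq starts alone. By the GENCODE starts, the whole Lcn2 window and the Csf3r match lie inside the gene. The regions of 6 genes that stand for each stage are shown, each ending before the earlier of the RefSeq and GENCODE starts; capitals mark a match to either motif, on the printed or the opposite strand.
Elane, chr10:79886062-79886246, plus strand: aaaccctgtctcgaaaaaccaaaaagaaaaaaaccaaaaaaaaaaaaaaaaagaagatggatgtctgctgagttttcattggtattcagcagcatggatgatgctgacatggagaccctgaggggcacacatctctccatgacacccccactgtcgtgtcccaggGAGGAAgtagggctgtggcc
Ngp, chr9:110419558-110419746, plus strand: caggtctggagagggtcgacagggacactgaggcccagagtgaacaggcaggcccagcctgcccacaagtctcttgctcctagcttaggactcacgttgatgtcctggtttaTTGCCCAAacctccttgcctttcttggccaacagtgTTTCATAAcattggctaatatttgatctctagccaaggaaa
Ltf, chr9:111019042-111019270, plus strand: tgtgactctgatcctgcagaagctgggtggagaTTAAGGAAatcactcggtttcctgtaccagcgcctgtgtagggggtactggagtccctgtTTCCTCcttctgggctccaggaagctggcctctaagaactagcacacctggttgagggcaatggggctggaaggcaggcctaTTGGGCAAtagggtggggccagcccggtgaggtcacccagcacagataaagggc
S100a8, chr3:90668821-90668977, plus strand: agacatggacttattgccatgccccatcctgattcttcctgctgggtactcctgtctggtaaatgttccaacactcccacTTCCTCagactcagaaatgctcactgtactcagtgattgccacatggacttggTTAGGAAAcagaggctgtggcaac
S100a9, chr3:90695722-90695971, minus strand: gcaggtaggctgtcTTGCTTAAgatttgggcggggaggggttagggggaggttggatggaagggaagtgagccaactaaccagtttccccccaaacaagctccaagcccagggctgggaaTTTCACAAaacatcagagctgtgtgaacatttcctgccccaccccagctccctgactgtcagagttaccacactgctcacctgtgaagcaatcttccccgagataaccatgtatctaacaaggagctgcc
Mmp8, chr9:7558179-7558428, plus strand: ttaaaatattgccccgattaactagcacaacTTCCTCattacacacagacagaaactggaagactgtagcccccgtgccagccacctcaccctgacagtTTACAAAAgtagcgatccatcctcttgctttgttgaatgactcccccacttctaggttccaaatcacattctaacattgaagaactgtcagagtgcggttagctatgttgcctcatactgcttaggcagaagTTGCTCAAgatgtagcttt
In the Elane region the capitals are a PU.1-type match, in Ngp and S100a9 they are C/EBP-type matches, and Ltf, S100a8 and Mmp8 show both types. S100a8 and S100a9 lie on chromosome 3 on opposite strands, Camp, Ngp and Ltf lie near each other on chromosome 9, and Mmp8 lies elsewhere on chromosome 9. These are matches of letters only, and factor binding was not measured.

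Total counts ran from 5911835 in DKO lymph node replicate 2 to 11950825 in DKO lymph node replicate 3. The lowest count of a member in any library was 6, for Elane in DKO/hA-I lymph node replicate 3, and all 10 members passed the filter on low counts in both tissues. B cell, T cell and macrophage markers were present in all groups, and the summed level of 10 erythroid markers was 1661 to 6539 CPM in spleens and 7.50 to 20.3 CPM in nodes (CPM, library-size-scaled counts on a scale common to the 12 libraries). Of 10 markers of neutrophils, 9 were in the tables, and their sum was 100.3 to 171 CPM in spleens and 73.9 to 250.4 CPM in nodes. The genotype labels could not be tested on Apoa1 or Apoe, which are targeted in both genotypes. The pseudogene Rpl31-ps12 differed by a log2 fold change of -8.48 ± 0.29 in spleen (DKO minus DKO/hA-I, edgeR adjusted p = 1.12e-06) while its value between the nodes was 9.37 ± 0.33 (edgeR adjusted p = 5.38e-05). A pseudogene that differs so far in opposite directions leaves the possibility that the genotype labels of 1 tissue were exchanged. The directions of genotype given here are therefore those of the labels, tissue by tissue. The animal codes of DKO nodes have 1 middle number in common, absent from the codes of DKO/hA-I nodes, so that number and the genotype cannot be told apart in node.

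**Figure D1:**
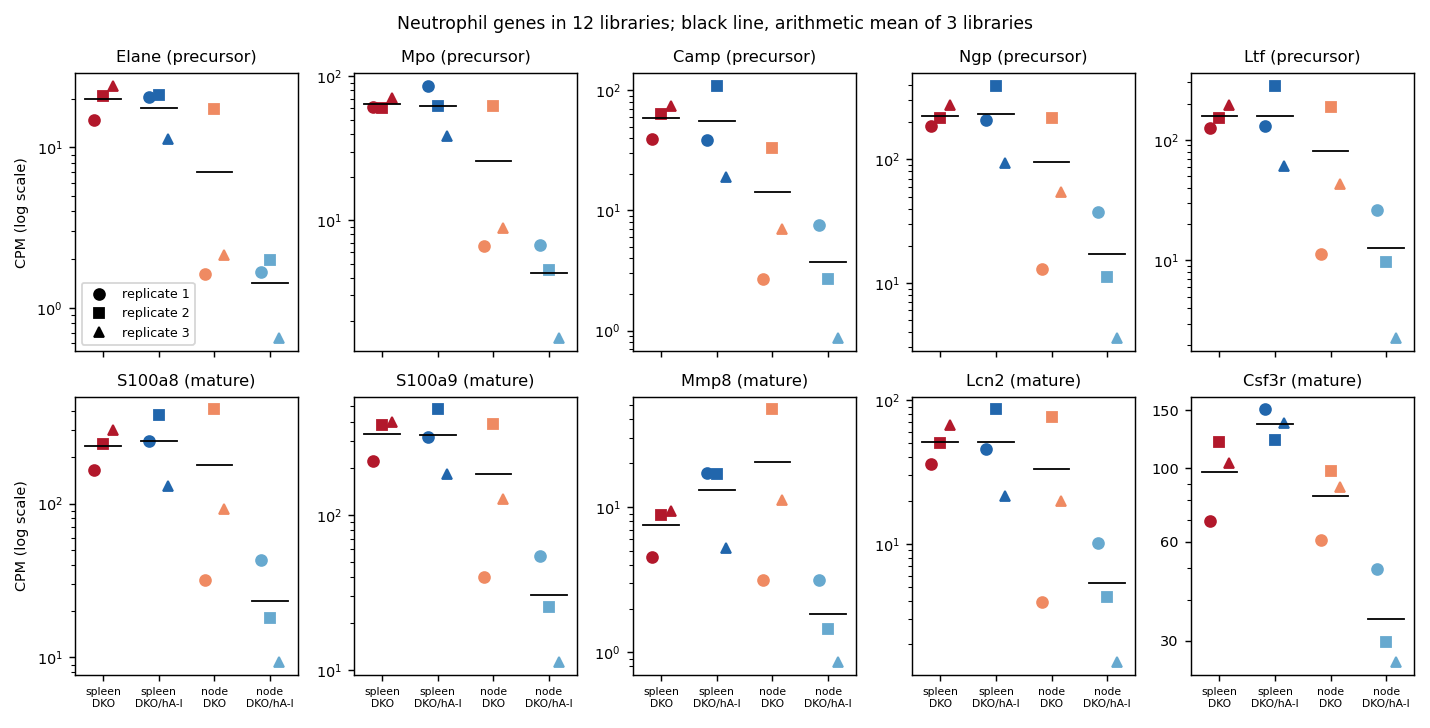
Level of each of the 10 genes in every library, in CPM on a log axis, with spleen DKO, spleen DKO/hA-I, lymph node DKO and lymph node DKO/hA-I from left to right; each point is 1 library and the bar is the group mean. DKO lymph node replicate 2 lies above the other nodes for all 10 genes, at 409 CPM for S100a8 and 217 CPM for Ngp.

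Per kilobase of exon, the calprotectin genes were the most abundant members in spleen and Mmp8 the least. Mean levels over the 6 spleens were 632 CPM per kb for S100a9, 354 for S100a8, 188 for Ngp and 75.7 for Camp. Ltf followed at 45.5 CPM per kb and Csf3r at 32.5, while Lcn2, Elane and Mpo lay at 19.5, 19.0 and 18.4 with ranges that overlapped widely, and Mmp8 at 4.24. Neighbours in this order overlapped in range over the 6 spleens except for Mmp8, whose highest spleen (6.99 CPM per kb) lay below the lowest of Mpo (11.3). Within each of the 6 spleens, S100a9, S100a8, Ngp, Camp and Ltf kept this order among themselves. Csf3r lay above Ltf in DKO/hA-I replicates 1 and 3. In lymph node S100a9, S100a8 and Ngp again had the highest means, at 205, 145 and 45.9 CPM per kb, and Csf3r came next at 16.3. The lengths are those of all annotated exons of a gene, so a gene with long minor transcripts, such as Lcn2, is set low on this scale.

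The genotype comparison in spleen asked whether human apoA-I is accompanied by a different neutrophil transcript level. None of the 10 genes passed, and for 9 of them, all but Csf3r, the genotypes overlapped. edgeR called 1 of 14009 genes (0.00714%) at an adjusted p under 0.05, and 617 genes (4.40%), Csf3r among them, had an unadjusted p under 0.05. DESeq2 and limma voom also called 0 of the 10. Log2 fold changes (DKO minus DKO/hA-I) were positive for 5 and negative for 5 members, with a median of 0.00 against 0.01 over all genes tested.

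Of the azurophil genes, Elane measured 14.8, 20.7 and 24.1 CPM in spleens labelled DKO and 20.6, 21.1 and 11.2 CPM in those labelled DKO/hA-I. Mpo measured 61.0, 60.4 and 70.5 CPM in DKO and 86.0, 62.0 and 38.6 CPM in DKO/hA-I spleens. The genotypes overlapped for both genes, and the log2 fold changes were 0.17 ± 0.26 and 0.03 ± 0.25 (standard error, n = 3 each; edgeR adjusted p = 0.942 and 0.987). The specific granule genes varied more. Ngp measured 186, 216 and 277 CPM in DKO spleens and 208, 394 and 93.5 CPM in DKO/hA-I spleens. Camp measured 39.5, 63.0 and 74.6 CPM in DKO spleens and 38.6, 109 and 18.9 CPM in DKO/hA-I spleens. Ltf measured 125, 153 and 194 CPM in DKO spleens and 129, 280.2 and 60.8 CPM in DKO/hA-I spleens. For these 3 genes DKO/hA-I replicate 2 was the highest and DKO/hA-I replicate 3 the lowest spleen, so the DKO/hA-I range enclosed the DKO range. The same order of extremes held for Lcn2 (35.7, 50.6 and 67.1 CPM in DKO, 45.5, 86.3 and 21.6 CPM in DKO/hA-I), S100a8 (165, 245 and 300.4 CPM in DKO, 256, 378 and 131 CPM in DKO/hA-I) and S100a9. Standard errors of the log2 fold change were 0.37 to 0.64 for these 6 genes, so changes of that order would not have been detectable with 3 libraries a group. Changes of more than 1 standard error could be missed too. Csf3r, at -0.49 ± 0.18 in the same fit, did not pass (edgeR adjusted p = 0.929).

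Csf3r and Mmp8 did not follow these extremes. Csf3r measured 69.3, 120.2 and 104 CPM in spleens labelled DKO and 151, 122 and 137 CPM in spleens labelled DKO/hA-I. The genotypes did not overlap, as was the case for 10.6% of all genes tested, but the log2 fold change of -0.49 ± 0.18 did not pass (edgeR adjusted p = 0.929, unadjusted p = 0.0230). Mmp8 measured 4.53, 8.80 and 9.31 CPM in DKO spleens and 17.0, 16.8 and 5.26 CPM in DKO/hA-I spleens, which overlapped (log2 fold change -0.78 ± 0.47, edgeR adjusted p = 0.929).

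The genotype comparison in lymph node gave a positive log2 fold change for all 10 genes, and 1 of them, Csf3r, passed. The other members had larger fold changes and rested mainly on 1 library, DKO replicate 2, in which the summed level of the set lay within the range of the spleens. edgeR called 962 of 14012 genes (6.87%), of which 3.95% of genes tested were higher in DKO nodes. The median log2 fold change of the members was 2.58, against 0.01 over all genes tested. As these are bulk samples, fewer cells of a type and less RNA per cell cannot be told apart.

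Csf3r measured 60.8, 98.5 and 87.6 CPM in DKO nodes and 49.5, 29.8 and 25.9 CPM in DKO/hA-I nodes. Every DKO node was above every DKO/hA-I node, as was the case in this direction for 15.6% of genes tested. The log2 fold change was 1.24 ± 0.28 (edgeR adjusted p = 0.0413). It did not pass without DKO replicate 1, 2 or 3 (edgeR adjusted p = 0.0546, 0.0654 and 0.129) or without DKO/hA-I replicate 2 or 3 (0.155 and 0.134), with fold changes of 1.05 to 1.56 over all settings that left out a library.

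Among the azurophil genes, Elane measured 1.62, 17.4 and 2.12 CPM in DKO nodes and 1.67, 1.99 and 0.645 CPM in DKO/hA-I nodes. Mpo measured 6.66, 62.4 and 8.83 CPM in DKO nodes and 6.78, 4.52 and 1.51 CPM in DKO/hA-I nodes. Apart from DKO replicate 2 the genotypes lay close together for Elane, and DKO replicate 1 was within the DKO/hA-I range for both genes. DKO replicate 3 lay above the DKO/hA-I nodes for both genes, by little for Elane. DKO replicate 2 was also the highest node for each specific granule gene. Camp measured 2.70, 33.1 and 7.06 CPM in DKO nodes and 7.53, 2.71 and 0.86 CPM in DKO/hA-I nodes. Ngp measured 12.9, 217 and 54.6 CPM in DKO nodes and 37.2, 11.1 and 3.55 CPM in DKO/hA-I nodes. Ltf measured 11.3, 188 and 43.3 CPM in DKO nodes and 26.2, 9.76 and 2.26 CPM in DKO/hA-I nodes. DKO replicate 3 lay above the DKO/hA-I nodes for Ngp and Ltf and within their range for Camp. DKO/hA-I replicate 1 exceeded DKO replicate 1 for all 3, so the groups overlapped.

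The genes of the mature stage spread likewise. S100a8 measured 31.8, 409 and 92.5 CPM in DKO nodes and 42.7, 18.1 and 9.36 CPM in DKO/hA-I nodes. S100a9 measured 39.8, 387 and 126 CPM in DKO nodes and 54.5, 25.7 and 11.3 CPM in DKO/hA-I nodes. As for most of the precursor genes, DKO replicates 2 and 3 lay above the DKO/hA-I nodes and replicate 1 lay among them. Lcn2 measured 3.96, 76.3 and 20.0 CPM in DKO nodes and 10.2, 4.25 and 1.51 CPM in DKO/hA-I nodes. Mmp8 measured 3.15, 46.9 and 11.2 CPM in DKO nodes and 3.16, 1.45 and 0.86 CPM in DKO/hA-I nodes, a log2 fold change of 3.44 ± 0.98 (edgeR adjusted p = 0.0808). Over the 9 members that did not pass, log2 fold changes were 1.90 to 3.44 and edgeR adjusted p-values 0.0808 to 0.281.

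Without DKO replicate 2 edgeR called 2245 genes (15.7%) in node and 0 of the 10 members, 2 of which had an unadjusted p under 0.05. Among the precursor genes the log2 fold change was then 0.37 ± 0.46 for Elane, 0.40 ± 0.86 for Camp and 0.85 ± 0.50 for Mpo, with 0.97 ± 1.15 for Ngp and 1.10 ± 1.11 for Ltf. The mature genes had 1.42 ± 0.82 for S100a8, 1.45 ± 0.85 for S100a9, 1.97 ± 0.68 for Mmp8, 1.17 ± 1.01 for Lcn2 and 1.09 ± 0.30 for Csf3r. The lowest edgeR adjusted p among them was 0.0654, for Csf3r. In the authors' deposited table, 9 of the 10 members had a q-value under 0.05 in lymph node, all but Elane, where 784 of 23284 genes (3.37%) did. In the authors' deposited table for spleen, 0 of the 10 members and 8 genes (0.0344%) had a q-value under 0.05.

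**Figure D2:**
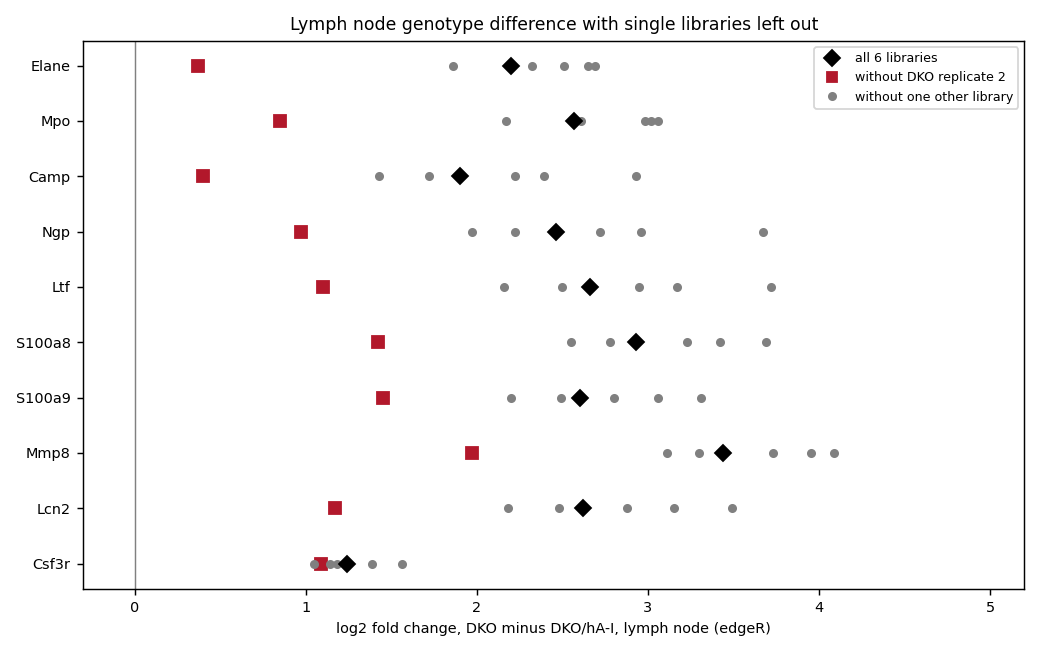
Log2 fold change of each gene, DKO minus DKO/hA-I in lymph node, with all 6 libraries and with each library left out. Without DKO replicate 2 the value was 0.37 for Elane and 0.40 for Camp, and 1.09 for Csf3r.

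DKO lymph node replicate 2 had the fewest counts of the 12 libraries and the highest summed member level of the nodes. The 10 genes summed to 175, 1536 and 453 CPM in DKO nodes and to 239.6, 109 and 57.8 CPM in DKO/hA-I nodes, against 700.4 to 1949 CPM in the 6 spleens. The precursor sum in that library was 519 CPM, within the spleens' range of 223 to 866 CPM, and the next highest node had 116 CPM. Other genes of neutrophil precursors were high there too, namely Prtn3, the azurophil protease 3, at 20.8 CPM against 0.753 to 3.25 CPM in the other nodes, and Fcnb, a ficolin, at 6.92 CPM against 0.323 to 0.706 CPM. The erythroid marker sum in that library was 11.6 CPM, against 7.50 to 20.3 CPM in the other nodes. Epcam, an epithelial gene, stood at 72.2 CPM in that library against 3.98 to 7.99 CPM in the other nodes, while the basal keratins Krt5 and Krt14 had 0 counts in all nodes. Over the 12 epithelial markers the sum was 76.1 CPM in that library, of which Epcam alone gave 72.2 CPM, and 6.60 to 13.2 CPM in the other nodes. The sum of 9 adipocyte markers was 66.9 to 126 CPM in DKO nodes and 721 to 2256 CPM in DKO/hA-I nodes, and that of 10 monocyte markers 1400 to 2043 CPM in DKO nodes and 936 to 1228 CPM in DKO/hA-I nodes. The part of these other cell types in the values of the members was not tested.

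More of the members passed between the tissues than between the genotypes. Averaged over both genotypes, 9 of the 10 genes were higher in spleen than in lymph node, all but Mmp8. edgeR called 2611 of 14608 genes (17.9%) as higher in spleen, and the members' median log2 fold change (spleen minus lymph node) was 2.22, against -0.02 over all genes tested. The tissue ranges overlapped for all 10, and DKO lymph node replicate 2 lay within or above the range of the spleens for each of them.

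The precursor genes had the largest differences. Camp averaged 57.3 ± 32.2 CPM in spleen and 8.99 ± 12.1 CPM in lymph node (SD, n = 6 each), a log2 fold change of 3.01 ± 0.61 (edgeR adjusted p = 0.00187). Elane averaged 18.7 ± 4.77 CPM in spleen and 4.24 ± 6.46 CPM in lymph node (log2 2.61 ± 0.50, edgeR adjusted p = 0.00128), and Mpo 63.1 ± 15.4 CPM in spleen and 15.1 ± 23.3 CPM in lymph node (log2 2.60 ± 0.50, edgeR adjusted p = 0.00134). Ngp and Ltf had log2 fold changes of 2.50 ± 0.63 and 2.29 ± 0.63 (edgeR adjusted p = 0.00754 and 0.0126). Among the mature genes S100a9 had 2.14 ± 0.49, Lcn2 1.95 ± 0.59 and S100a8 1.93 ± 0.54 (edgeR adjusted p = 0.00436, 0.0206 and 0.0131). Csf3r averaged 117 ± 28.4 CPM in spleen and 58.7 ± 29.7 CPM in lymph node, a smaller log2 fold change of 1.11 ± 0.18 with a smaller error (edgeR adjusted p = 0.000391). Mmp8 averaged 10.3 ± 5.46 CPM in spleen and 11.1 ± 17.9 CPM in lymph node and did not pass (log2 0.71 ± 0.57, edgeR adjusted p = 0.364). For this gene the means and the fold change differ in sign, because the fold change averages the genotypes on the log scale (-1.38 in DKO and 2.81 in DKO/hA-I). With no filter on low counts Ltf, S100a8 and Lcn2 did not pass (edgeR adjusted p = 0.0568, 0.0568 and 0.0752), and Lcn2 also missed the threshold in 5 fits that left out 1 library (edgeR adjusted p = 0.0523 to 0.0748).

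The tissues were also compared within each genotype. Within DKO/hA-I, 10 of 10 members were higher in spleen (14.0% of genes were), with log2 fold changes of 1.96 ± 0.26 for Csf3r to 3.88 ± 0.91 for Camp. Within DKO, 0 of 10 passed in edgeR (11.5% of genes were higher in spleen), 2 members had an unadjusted p under 0.05, and the values ran from -1.38 ± 0.75 for Mmp8 to 2.14 ± 0.82 for Camp. Both comparisons were chosen after the data had been seen. Without DKO lymph node replicate 2 all 10 members passed in edgeR for both genotypes together, Mmp8 included (log2 1.43 ± 0.46, adjusted p = 0.0306).

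A test of whether the genotype difference itself differed between the tissues called 1 of the 10 members, Csf3r, where 2.04% of 14608 genes passed in this direction. Its genotype difference in spleen minus that in lymph node was -1.71 ± 0.36 on the log2 scale (edgeR adjusted p = 0.0254), with single-tissue values of -0.49 in spleen, which did not pass, and 1.24 in lymph node, which did. The same contrast was negative for all 10 members and was -4.18 ± 1.14 for Mmp8 (edgeR adjusted p = 0.0680). Csf3r did not pass here without DKO replicate 3 or DKO/hA-I replicate 2 of lymph node, or without DKO replicate 3 or any of the 3 DKO/hA-I replicates of spleen (edgeR adjusted p = 0.0568 to 0.0786). Both the sign and the size of the contrast rest on the labels of both tissues. With the spleen labels exchanged, an alternative chosen after the data had been seen, Csf3r had -0.74 ± 0.36 and did not pass (edgeR adjusted p = 0.241), and 0 of the 10 members passed, 6 of which had an unadjusted p under 0.05. Exchanging the lymph node labels instead gives the same size with the opposite sign.

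**Figure D3:**
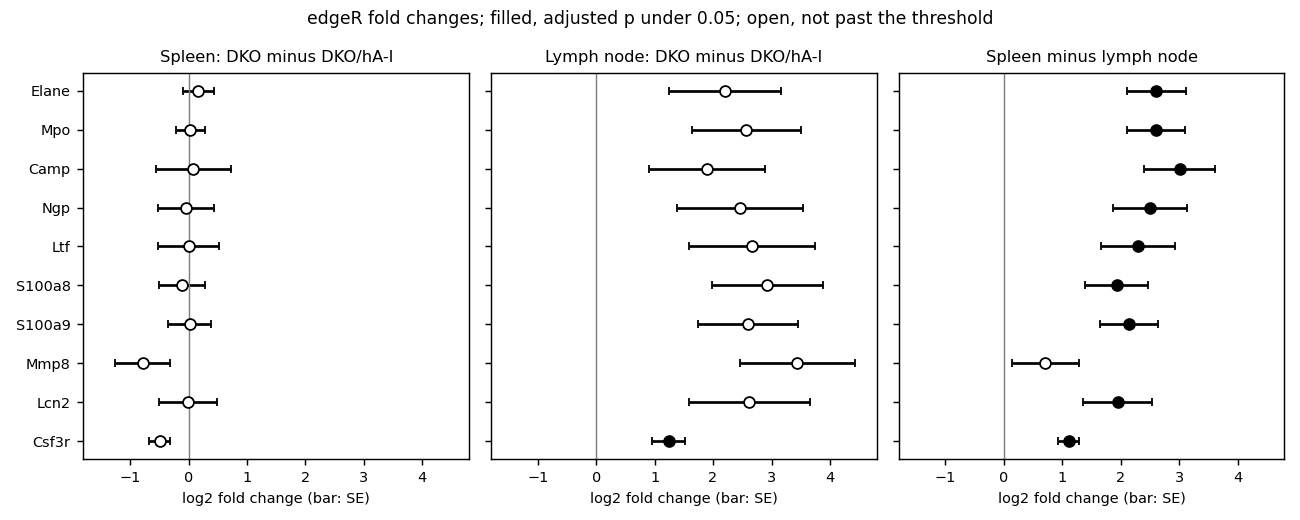
Log2 fold change of each gene with its standard error for the genotype difference in spleen, the genotype difference in lymph node (both DKO minus DKO/hA-I) and the tissue difference (spleen minus lymph node); filled points passed an edgeR adjusted p of 0.05. Spleen values lie around 0 with a median of 0.00, node values have a median of 2.58 with Csf3r alone filled, and 9 of 10 tissue differences are filled.

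Ratios between members within a library do not depend on how many counts the set took up, and are given as descriptions. Per 100 CPM of the mature genes, the precursor genes summed to 46.7 to 85.6 CPM in spleens and 18.0 to 51.0 CPM in nodes, so that the lowest spleen lay among the highest nodes. Camp per 100 CPM of S100a8 was 14.4 to 28.9 in spleens and 7.63 to 17.6 in nodes. By genotype it was 23.9, 25.7 and 24.9 in DKO spleens and 15.0, 28.9 and 14.4 in DKO/hA-I spleens. In nodes it was 8.50, 8.09 and 7.63 in DKO and 17.6, 15.0 and 9.20 in DKO/hA-I, so that the 3 DKO nodes lay close together although their S100a8 levels differed by a factor of 12.9. The ratio of 9.20 in DKO/hA-I replicate 3 rests on 8 counts of Camp, and its distance from the DKO nodes is within counting error. Mmp8 went the other way. Per 100 CPM of S100a8 it was 2.74 to 6.61 in spleens and 7.39 to 12.1 in nodes, without overlap. The lowest node value, in DKO/hA-I replicate 1, rests on 34 counts of Mmp8, and DKO/hA-I replicate 3 had 8. The distance of the lowest node from the highest spleen is within counting error, so the tissues are not clearly apart at that edge. Per 100 CPM of Ngp, Mmp8 was 2.44, 4.07 and 3.35 in DKO spleens and 8.14, 4.27 and 5.62 in DKO/hA-I spleens. In nodes it was 24.5, 21.6 and 20.5 in DKO and 8.50, 13.0 and 24.2 in DKO/hA-I. The value of 8.50 rests on the same 34 counts of Mmp8, and its distance from the spleen value of 8.14 is within counting error. In DKO lymph node replicate 2 the Mmp8 and Camp ratios lay close to those of the other DKO nodes. Its precursor sum per 100 CPM of the mature genes was 51.0, within the range of the spleens, against 25.2 and 34.4 in the other DKO nodes. The mature sum includes Csf3r, which monocytes also transcribe. Csf3r gave 60.8 of 139 CPM in DKO replicate 1, 98.5 of 1017 CPM in replicate 2 and 87.6 of 337 CPM in replicate 3. Ratios to this sum therefore also depend on Csf3r, and none was computed without it. Ratios to S100a8 alone leave Csf3r out. In replicate 2 they were 4.25 for Elane, 15.3 for Mpo, 8.09 for Camp, 53.2 for Ngp and 46.1 for Ltf. Each lay below the lowest spleen (5.57, 16.4, 14.4, 71.5 and 46.5), by little for Ltf, and between the other DKO nodes. By this measure the precursor share of replicate 2 was outside the range of the spleens. The calprotectin pair kept a steady ratio, with S100a9 at 124 to 155 CPM per 100 CPM of S100a8 in spleens and 94.6 to 142 in nodes. Csf3r per 100 CPM of S100a8 was 32.4 to 105 in spleens and 24.1 to 277 in nodes, and was lowest in DKO replicate 2 among the nodes.

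**Figure D4:**
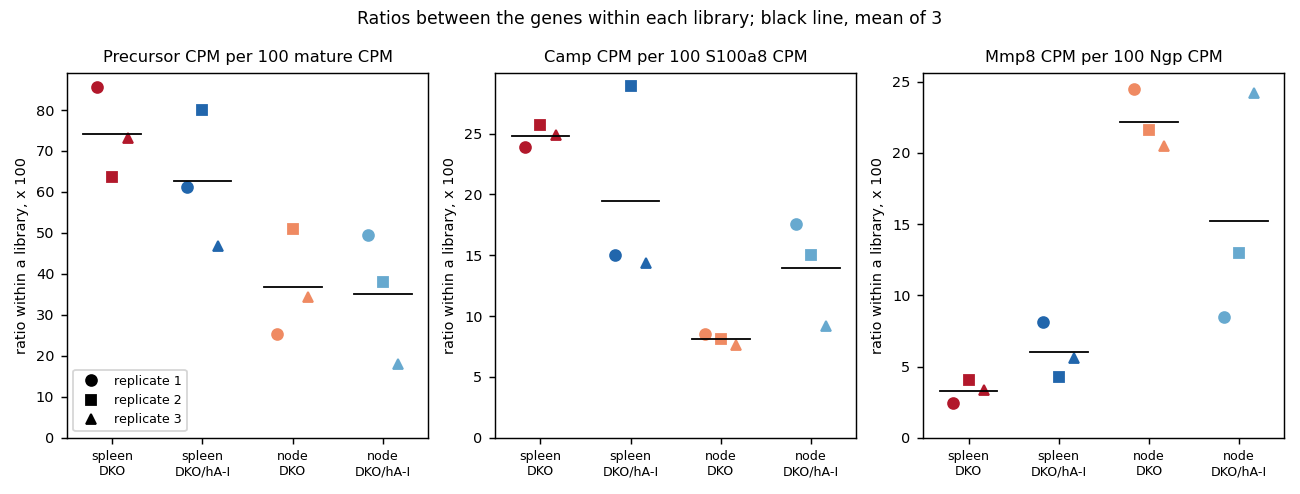
Ratios between members within each library: precursor genes per 100 CPM of mature genes, Camp per 100 CPM of S100a8 and Mmp8 per 100 CPM of Ngp, by group, with each point 1 library. The spleens' Mmp8 ratio of 2.44 to 8.14 lies below the nodes' 8.50 to 24.5. The lowest node value rests on 34 counts of Mmp8, and its distance from the highest spleen is within counting error.

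Other genes of the same granules were read from lists that were not trimmed by their values. Of 9 further azurophil and promyelocyte genes, edgeR called 4 as higher in spleen than in node, namely Prtn3, Prss57, Ms4a3 and Fcnb. Between genotypes edgeR called 0 of 9 tested in spleen, where 0 had an unadjusted p under 0.05 and DESeq2 called 0. It called 0 of 7 tested in node, where 2 had an unadjusted p under 0.05 and DESeq2 called 2. Fcnb averaged 7.60 ± 2.22 CPM in spleen and 1.57 ± 2.63 CPM in lymph node (SD, n = 6 each; log2 2.84 ± 0.56, edgeR adjusted p = 0.00151). Of 13 further specific and gelatinase granule genes, edgeR called 7 as higher and 5 as lower in spleen than in node. Over all genes tested 17.9% were called higher and 17.5% lower. Lysozyme (Lyz2), also abundant in macrophages, was among the lower, at 1906 ± 251 CPM in spleen and 3888 ± 1262 CPM in lymph node (log2 -0.98 ± 0.11, edgeR adjusted p = 2.07e-05).

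Between genotypes in lymph node, 3 of 12 tested specific and gelatinase granule genes passed, all higher in DKO, as were 3.95% of all genes tested. Gelatinase B (Mmp9) measured 35.6, 59.7 and 44.3 CPM in DKO nodes and 15.7, 14.6 and 7.85 CPM in DKO/hA-I nodes (log2 1.88 ± 0.29, edgeR adjusted p = 0.0170). Annexin A1 (Anxa1) measured 526, 181 and 772 CPM in DKO nodes and 63.0, 54.4 and 63.9 CPM in DKO/hA-I nodes (log2 3.04 ± 0.47, edgeR adjusted p = 0.0171). Lyz2 measured 4905, 4158 and 5730 CPM in DKO nodes and 3204, 2663 and 2667 CPM in DKO/hA-I nodes (log2 0.81 ± 0.17, edgeR adjusted p = 0.0345). The granule members were highest in DKO replicate 2, but Anxa1 and Lyz2 were lowest there among DKO nodes. Of 10 macrophage markers, edgeR called Cd68 and Mertk as higher and Marco and Timd4 as lower in DKO nodes. Cd68, a lysosomal protein gene of macrophages, measured 356, 127 and 438 CPM in DKO nodes and 92.8, 73.6 and 60.5 CPM in DKO/hA-I nodes. Mertk, which encodes a receptor for the uptake of dying cells, measured 148, 94.1 and 177 CPM in DKO nodes and 55.2, 43.0 and 36.4 CPM in DKO/hA-I nodes. Both were lowest in replicate 2 among the DKO nodes, as were Anxa1 and Lyz2, and the sum of the 10 markers was 1632 to 2208 CPM in DKO nodes and 1350 to 1984 CPM in DKO/hA-I nodes. The part of macrophages in these values was not tested. Of 12 tested genes of mature neutrophils, edgeR called 4 as higher in DKO nodes, namely Il1r2, Fpr1, AA467197 and Irg1. The decoy interleukin 1 receptor gene Il1r2 measured 8.64, 11.8 and 12.9 CPM in DKO nodes and 3.72, 2.17 and 4.19 CPM in DKO/hA-I nodes (log2 1.74 ± 0.30, edgeR adjusted p = 0.0211). The formyl peptide receptor gene Fpr1 measured 1.71, 6.41 and 3.18 CPM in DKO nodes and 0.743, 0.271 and 0.538 CPM in DKO/hA-I nodes (log2 2.80 ± 0.60, edgeR adjusted p = 0.0374). Macrophages and monocytes also express most of these genes.

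Of the transcription factors and signals of granulocyte formation, edgeR called 0 of 11 tested between genotypes in spleen and 0 of 11 in node. An unadjusted p under 0.05 was reached by 2 of them in each tissue, and DESeq2 called 0 in spleen and 1 in node. Between tissues Cebpe, which drives specific granule genes, averaged 4.57 ± 1.94 CPM in spleen and 1.78 ± 1.12 CPM in lymph node (log2 1.38 ± 0.43, edgeR adjusted p = 0.0238). Cebpa, which acts at an earlier stage, averaged 28.5 ± 2.72 CPM in spleen and 78.7 ± 24.3 CPM in lymph node (log2 -1.47 ± 0.20, edgeR adjusted p = 6.62e-05). Among DKO nodes Cebpa measured 86.9, 48.1 and 103 CPM, lowest in replicate 2, where the granule members were highest. Which cells gave the Cebpa transcripts was not tested. Csf3, the gene of the ligand of Csf3r, had 1 count in DKO spleens, 0 in DKO/hA-I spleens, 11 over the DKO nodes and 3 over the DKO/hA-I nodes. Of 9 tested chemoattractant and retention genes, the leukotriene B4 receptor gene Ltb4r1 was higher in DKO nodes, at 5.02 ± 1.39 CPM in DKO and 1.60 ± 0.18 CPM in DKO/hA-I (SD, n = 3 each; log2 1.64 ± 0.31, edgeR adjusted p = 0.0273). For 6 sensors of S100a8 and S100a9, edgeR called 0 between genotypes in each tissue, with an unadjusted p under 0.05 for 1 in spleen and 2 in node and DESeq2 calling 0 in spleen and 1 in node. For 6 granulocyte oxidase genes, edgeR called 0 in each tissue, with 0 in spleen and 3 in node at an unadjusted p under 0.05 and the same numbers called by DESeq2.

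Over the 12 libraries, each gene centred within its tissue, the genes most alike in pattern to Camp, Ngp and Ltf among 11253 compared were Cd177, Dysf, Chi3l3, Mcam and Prtn3 (Pearson r 0.99, 0.96, 0.96, 0.94 and 0.93). The genes most alike to S100a8 and S100a9 were Cd177, Mcam, Pilra, Chi3l3 and Dysf (r 0.98, 0.97, 0.97, 0.97 and 0.95). Cd177 encodes a neutrophil surface protein and Chi3l3 a chitinase-like protein of neutrophils and macrophages. Cd177 measured 18.0, 29.2 and 38.3 CPM in DKO spleens, 24.9, 49.3 and 14.2 CPM in DKO/hA-I spleens, 3.24, 40.2 and 9.45 CPM in DKO nodes and 7.62, 2.44 and 0.753 CPM in DKO/hA-I nodes. These correlations describe libraries that share scaling and depth and lean on the libraries at the extremes. Without DKO lymph node replicate 2 they were 0.89 to 0.99 for the first set and 0.92 to 0.96 for the second (n = 11).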

How the data were processed

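Poly(A) RNA of 12 libraries was sequenced on the Illumina Genome Analyzer IIx, per the labels. The submitters' processing notes name Trimmomatic, Bowtie, TopHat, Cuffdiff and the mouse build GRCm38 (mm10). No version, annotation, counting program or strand setting is given in the sources used here, so reads of Mpo and of the antisense gene Gm11505 that overlaps it cannot be told apart. The deposited tables, 1 per tissue, hold raw read counts per gene and library, per the file headers, and the q-value of the authors' own genotype comparison, both used as deposited. The members and gene lists were chosen with earlier results of these data known.

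The quasi-likelihood test of edgeR 4.0.16 (R 4.3.3) was applied to the counts (filterByExpr with a minimum count of 10 and a minimum total of 15, TMM, robust dispersions, Benjamini-Hochberg adjustment over all genes tested, threshold 0.05). Each tissue was fitted alone for the genotype difference, and all 12 libraries together for the tissue difference and the interaction. CPM values use 1 TMM scale over the 12 libraries, and CPM per kb divides by the exon length of GENCODE vM21 (GRCm38). DESeq2 1.42.0, limma 3.58.1 voom, other scalings and filters and each library left out were alternatives, and the steps were tested on simulated counts. The depth of 5911835 to 11950825 counts gave the lowest member 6 counts in 1 library. Pairs of libraries of a group differed by 9.52 to 56.5 times the Poisson expectation, so none was a copy. Libraries carry separate animal codes, and p-values rest on the spread among them. Genes outside the members were named by rule: up to 4 per list, called ones first by adjusted p, otherwise by mean CPM, and the 5 most alike in pattern. Names beyond that rule, and the choice of which to give values for, came after values were seen: Csf3, the epithelial genes, and other lists' called genes. The values of 1 called gene of these lists are not reported here.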

Additional observations from a re-analysis of the deposited data

Results flagged for a closer look

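The genotype difference of Csf3r, the G-CSF receptor gene, differed between the tissues by -1.71 ± 0.36 on the log2 scale (spleen minus lymph node, edgeR adjusted p = 0.0254). It was -0.49 ± 0.18 in spleen, where DKO libraries measured 69.3 to 120.2 CPM and DKO/hA-I libraries 122 to 151 CPM, and 1.24 ± 0.28 in lymph node, where DKO libraries measured 60.8 to 98.5 CPM and DKO/hA-I libraries 25.9 to 49.5 CPM. Each of the 3 DKO libraries lay below each DKO/hA-I library in spleen and above each in lymph node, by the labels. The pseudogene Rpl31-ps12 differed by -8.48 in spleen and 9.37 in lymph node, so the labels of 1 tissue may be exchanged. With those of spleen exchanged, Csf3r would differ the same way in both tissues and the value was -0.74 ± 0.36 (edgeR adjusted p = 0.241). Over the alternatives the value ran from -2.02 to -0.74 and the adjusted p from 0.00043 to 0.241, and it missed the threshold in 8 of 19 settings. Monocytes also transcribe Csf3r. The sum of 10 monocyte markers was 1632 to 1852 CPM in DKO and 1620 to 1762 CPM in DKO/hA-I spleens. In nodes it was 1400 to 2043 CPM in DKO and 936 to 1228 CPM in DKO/hA-I. Of the 10 markers, 8 had a positive fold change in node (DKO minus DKO/hA-I), while Ms4a4c and Nr4a1 went the other way. Among them edgeR called only Fn1 in node, where 3.95% of genes tested were called higher. The median log2 fold change of the 10 markers in node was 0.57, against 0.01 over all genes tested. An unadjusted edgeR p under 0.05 was reached by 7 of the 10 and by 25.1% of genes tested. DESeq2 called 5 of the 10 in node, and 1967 of 14012 genes. The part of monocytes in the Csf3r difference was not tested.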

How the results depend on the processing

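In spleen 0 of 10 members passed in all 14 settings. The number of genes called was 1, and it was 5 with DESeq2, 515 with the middle number of the animal code as a block and 1 to 167 when 1 library was left out. Signs of fold changes near 0 turned in spleen. Lcn2 was 0.00 with no filter, 0.18 with voom, 0.01 without haemoglobin genes, 0.13 with the replicate block, 0.00 in 1 fit of 12 libraries and 0.19 with the code block. Ngp was 0.17 with voom, 0.15 with the replicate block and 0.07 with the code block, and S100a8 0.06 with the code block. With 1 library left out the spleen values ran from -0.08 to 0.33 for Elane, -0.22 to 0.35 for Mpo, -0.34 to 1.04 for Camp, -0.42 to 0.58 for Ngp, -0.39 to 0.73 for Ltf, -0.43 to 0.29 for S100a8, -0.27 to 0.41 for S100a9 and -0.38 to 0.61 for Lcn2.

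In lymph node 962 genes and 1 member were called. The counts were 1967 and 3 with DESeq2 (Elane, Mmp8 and Csf3r), 2253 and 5 in 1 fit of 12 libraries (Mpo, S100a8, S100a9, Mmp8 and Csf3r), 438 and 0 with the replicate block, and 115 to 2245 and 0 to 1 with 1 library left out. Csf3r passed in 7 of 13 settings, with adjusted p from 0.000899 to 0.155. For the tissue difference, 8 to 10 members passed with 1 library left out, 10 in DKO/hA-I alone and 6 with no filter on low counts. In DKO alone 3325 genes and 0 members passed, and Mmp8 was -1.38. For the interaction, 487 genes and 1 member passed. The counts were 973 and 2 with DESeq2, 253 genes with voom, 152 and 0 with the replicate block, 753 and 0 with the spleen labels exchanged, and 179 to 1160 and 0 to 3 with 1 library left out. Same-numbered libraries deviated with correlations of -0.01, 0.12 and -0.10 in spleen and -0.14, 0.03 and -0.03 in node, so no pairing by replicate number was seen. Spleens of both genotypes do share middle numbers of the animal code. DKO replicate 3 shares its number with DKO/hA-I replicate 1 (correlation 0.21). DKO replicate 2 shares its number with DKO/hA-I replicates 2 and 3 (0.12 and 0.01). The cause of these changes was not tested.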
